A study of Homo sapiens with 20 samples.

Results

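The mRNAs of 43 translation initiation and elongation factors were followed in exosomes, vesicles that cells release, and in RNA granules, assemblies of RNA and protein in the cytoplasm. The cells were HEK293, a line from human embryonic kidney. The 43 genes were taken by symbol from 62266 named genes in the deposited files: 13 subunits of eIF3, 3 of eIF2, 5 of eIF2B, 9 cap-binding and helicase factors of the eIF4 family, 2 eIF4E-binding proteins, 5 factors of scanning and start-codon selection and 6 elongation factors. Each symbol matched 1 gene, and all 43 passed the filter on low counts in every comparison. Total RNA was sequenced in 4 groups of 5 libraries: exosomes of control cells, exosomes of HD-induced cells, granules of control cells and granules of HD-induced cells, where HD stands for Huntington's disease. The labels name the granule samples cytoplasmic granule cores and call the 5 libraries of a group biological replicates. The sources used here do not say how HD was induced, or in what clone or pool of cells. HTT, the gene mutated in the disease, was not called between HD-induced and control cells, with a mean of 201 against 172 CPM in exosomes (edgeR, adjusted p = 0.735) and 181 against 185 CPM in granules (adjusted p = 0.9996), and its level does not show whether a disease construct was present.

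Translation of a capped mRNA starts when eIF4F binds the cap: eIF4E holds the cap, eIF4G is the scaffold and eIF4A the RNA helicase. eIF3, the large many-subunit factor, joins this complex to the small ribosomal subunit, which carries the initiator tRNA with eIF2 and scans to the start codon with eIF1 and eIF1A. eIF2B reloads eIF2 with GTP, and the phosphorylation of eIF2 under stress blocks that step and leads to stress granules, in which stalled mRNAs gather with eIF3 and eIF4F proteins. eEF1A then brings aminoacyl-tRNAs and eEF2 moves the ribosome along. Many mRNAs of the elongation factors and of some eIF3 subunits begin with a C and a run of pyrimidines, the 5' terminal oligopyrimidine (TOP) tract, through which mTOR signalling controls their translation.

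The first bases of the mRNAs are shown because a TOP tract at that place is the sequence by which these messages are usually grouped. Each window below holds 10 bases before and 20 bases from an annotated start, 5' to 3', on build GRCh38.p14 with starts from RefSeq. Capitals mark a C at the start followed by at least 4 pyrimidines, up to the end of the run. EEF1B2 has 2 starts in the table, and the later one is shown because the earlier one has no such run.
EEF1A1 (chr6:73521013-73521042, minus strand): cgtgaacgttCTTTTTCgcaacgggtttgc
EEF2 (chr19:3985444-3985473, minus strand): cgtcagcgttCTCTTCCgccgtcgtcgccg
EIF3F (chr11:7987327-7987356, plus strand): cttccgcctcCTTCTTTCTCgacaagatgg
EIF3M (chr11:32583821-32583850, plus strand): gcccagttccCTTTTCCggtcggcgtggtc
EIF4A2 (chr3:186783567-186783596, plus strand): gcgccgctgtCTTTTCagtcgggcgctgag
EEF1B2 (chr2:206159885-206159914, plus strand): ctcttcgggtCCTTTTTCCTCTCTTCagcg
EIF3K (chr19:38619178-38619207, plus strand): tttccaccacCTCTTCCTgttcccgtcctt
EIF3I (chr1:32222397-32222426, plus strand): ttccggtcttactcacgttgcggccttcct
The first 3 belong to mRNAs that were higher in control exosomes, EIF3M and EIF4A2 to mRNAs that were higher in control granules, EEF1B2 and EIF3K to mRNAs that were not called, and EIF3I, the mRNA with the largest difference, has no such run at the annotated start. The run was searched on the gene's own strand only. It was found at a start of 10 of the 35 members in the RefSeq table (28.6%), against 5.14% of the 27305 genes in it. Of these 10, 6 were higher in control exosomes, 2 were higher in control granules and 2 were not called. Beside them, 32.5% of all genes tested were called toward exosomes and 30.0% toward granules, and most of the 43 members were called toward exosomes. Whether the run goes with the compartment was not tested.

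Levels were read as CPM, counts on a gene per 1000000 reads on named genes, scaled by the trimmed mean of M values (TMM), and only TPM, which is per length, was used to compare one gene with another. Both are shares of a library, so less of an mRNA and more of all other RNA cannot be told apart. TPM also counts entries without a gene name, so TPM set between libraries moves with their share. Of 1000000 TPM, named genes took 297090 to 335554 in control exosomes and 267127 to 570392 in control granules. In HD exosome 2 they took 79930. Ratios of genes within a library are not touched by this. Control exosomes held 8.99 to 15.6 M reads (M, mega-reads), control granules 17.4 to 38.4 M and HD granules 26.96 to 35.8 M. HD exosomes were uneven: replicates 1, 2, 3 and 5 held 12.1, 14.4, 1.98 and 4.25 M reads, and replicate 4 held 1074 reads, of which 38 lay on 14 of the members. HD exosome 4 entered the tests of level but not the levels or isoform shares given below. In HD exosome 2, 86.6% of reads lay on entries without a gene name, against 24.9% to 59.2% in the other libraries. HD granule 3 stood apart from its group: over 17002 genes its levels correlated with the median of the other HD granules at r = 0.871. The values were 0.916 with control granules, 0.923 with HD exosomes and 0.937 with control exosomes. Of 43 members, 24 were nearer to the control exosome median than to that of the other HD granules. Results in HD-induced cells are therefore given with and without HD exosomes 2 and 4 and HD granule 3. The HEK293 markers LIN28B, IGF2BP1, NEFL and CDH2 were present in each group and NEFM was at most 0.878 CPM. Summed markers of red blood cells were 67.5 to 227 CPM in control exosomes, 76.0 to 1776 in HD exosomes, 9.29 to 31.3 in control granules and 5.69 to 92.0 in HD granules, all 5 markers being detected in at least 1 library of each group. Those of keratinocytes were 5.82 to 78.9, 16.0 to 668, 0.843 to 2.47 and 1.45 to 6.23 CPM in the same order, with KRT14 at 0 in HD exosomes, and those of leukocytes 1.69 to 4.83, 4.80 to 24.0, 2.40 to 5.21 and 1.66 to 4.90 CPM, with CD3E at 0 outside HD exosomes. HD exosome 5 held the highest sums of red blood cell and keratinocyte markers. These markers differed along with the compartment in the comparisons below, and their part in the results was not tested.

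To compare the compartments, granules were set against exosomes in control cells, with positive log2 fold changes meaning higher in granules. Of the 43 mRNAs, 27 were higher in exosomes, 7 were higher in granules and 9 were not called at an adjusted p under 0.05 (edgeR's quasi-likelihood test with Benjamini-Hochberg adjustment over 14777 genes). Calls were common among all genes, at 62.4%, made up of 30.0% toward granules and 32.5% toward exosomes. The median log2 fold change of the members was -0.94, against -0.02 for all genes tested. For 30 of the 43 members all 5 granule libraries lay on one side of all 5 exosome libraries, and each of those 30 was called. The same held for 49% of genes tested. Together the 43 mRNAs took 2.81% to 3.28% of named reads in control exosomes and 1.28% to 1.47% in control granules, with no overlap. Leaving out 1 library at a time changed the direction of no called member, but it ended the call of EIF3A (without control exosome 1, 3 or 4) and of EIF2S1 (without control granule 2 or 3).

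**Figure D1:**
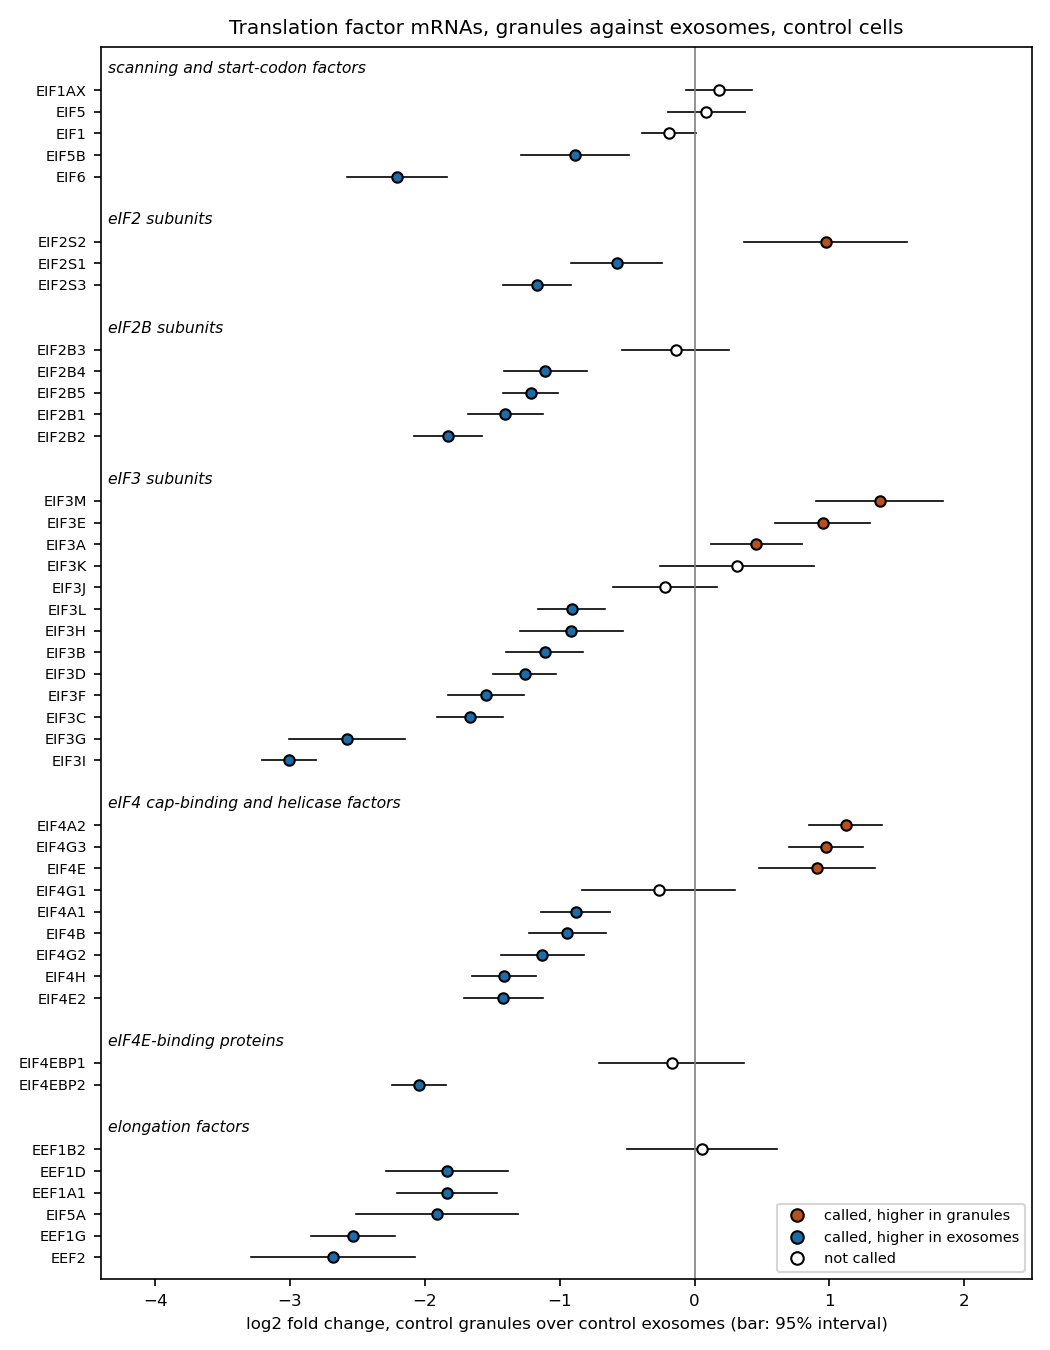
Log2 fold change of granules over exosomes in control cells for each of the 43 mRNAs, ordered within its role, with bars for the 95% interval. Filled points were called, those right of 0 higher in granules (EIF3A and EIF3E turned to just under 0 with the GC and length offset), and EIF3I at -3.00 and EIF3M at 1.37 marked the ends of the range.

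The mRNAs of eIF3 fell on both sides. Of the 13 subunits, 8 were higher in exosomes, 3 were higher in granules (EIF3M, and EIF3A and EIF3E, both of which turned with an offset for GC content and length) and 2 (EIF3J and EIF3K) were not called, with a median of -0.91. The offset called EIF3J at -0.89 (adjusted p = 8.72e-06) and EIF3K at 0.71 (adjusted p = 0.0291), and EIF3K was also called without control granule 1, at 0.52 (adjusted p = 0.023). The other 30 members had 19, 4 and 7, with a median of -1.02. The difference between both lists was not tested. EIF3I, a WD-repeat subunit that binds EIF3B, held 430.4, 435, 414, 410.4 and 407 CPM in control exosomes 1 to 5 and 57.6, 51.9, 58.9, 52.3 and 53.2 CPM in control granules 1 to 5. Every exosome library was above every granule library by a wide margin, and the mRNA was 8.02-fold higher in exosomes, a log2 fold change of -3.00 (SE 0.09, adjusted p = 4.1e-09). EIF3I lies at chr1:32222407-32236170 on GRCh38.p14. EIF3G, an RNA-binding subunit of the same peripheral module, held 186, 156, 140.5, 172 and 139 CPM in control exosomes 1 to 5 and 38.1, 33.03, 24.3, 25.4 and 18.6 CPM in control granules 1 to 5. Its groups did not overlap either, and it was 5.96-fold higher in exosomes, at -2.57 (SE 0.20, adjusted p = 6.72e-07). EIF3B, the scaffold of that module, had -1.11, and EIF3D, a subunit that can bind the cap itself, had -1.26.

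EIF3M, a subunit of the eIF3 core, went the other way. It held 227, 287, 256, 227 and 272 CPM in control exosomes 1 to 5 and 418, 487, 683, 878 and 992 CPM in control granules 1 to 5. Each granule library was above each exosome library, at 1.37 (SE 0.22, adjusted p = 0.000163), and the granule libraries differed among themselves by more than 2-fold. With an offset for GC content and length the value fell to 0.35 (SE 0.13, adjusted p = 0.0329). EIF3E, another core subunit, held 371, 399, 329.8, 362 and 418 CPM in control exosomes 1 to 5 and 567, 617, 729.6, 823 and 1074 CPM in control granules 1 to 5. Its groups did not overlap and it was higher in granules at 0.95 (SE 0.16, adjusted p = 0.000291), but with the same offset the value turned to -0.034. EIF3A, the largest core subunit, was higher in granules at 0.46 (SE 0.16, adjusted p = 0.0218) with overlapping groups, and the offset gave -0.076. Among the other core subunits EIF3C (-1.66), EIF3F (-1.55), EIF3H (-0.91) and EIF3L (-0.91) were higher in exosomes, so that core subunits lay on both sides. EIF3C shares most of its sequence with the copy EIF3CL, and its value depends on how reads were divided between them.

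Per length, the eIF3 subunits were closer to each other in exosomes than in granules. The ratio of the highest to the lowest of the 13 TPM values was 9.74 to 17.4 in the 5 control exosome libraries and 19.9 to 57.6 in the 5 control granule libraries. EIF3I and EIF3M were near equal in control exosomes, at 152 ± 12.6 and 153 ± 17.4 TPM (SD, n = 5). In control granules they were 11.4 ± 3.62 and 259 ± 121 TPM. Their ratio, EIF3M over EIF3I, was 0.867 to 1.14 in control exosomes and 12.5 to 31.3 in control granules. This pair was chosen after the values were seen. EIF3E (119.8 ± 12.7 and 165 ± 61.99 TPM) and EIF3K (97.2 ± 13.9 and 95.4 ± 48.1 TPM) were the next most abundant subunits in granules, while EIF3G, at 8.27 ± 2.73 TPM, and EIF3J, at 9.34 ± 2.81 TPM, were the lowest and lay within each other's spread. EIF3J, a loosely bound subunit, was also the lowest in exosomes, at 13.8 ± 3.31 TPM.

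**Figure D2:**
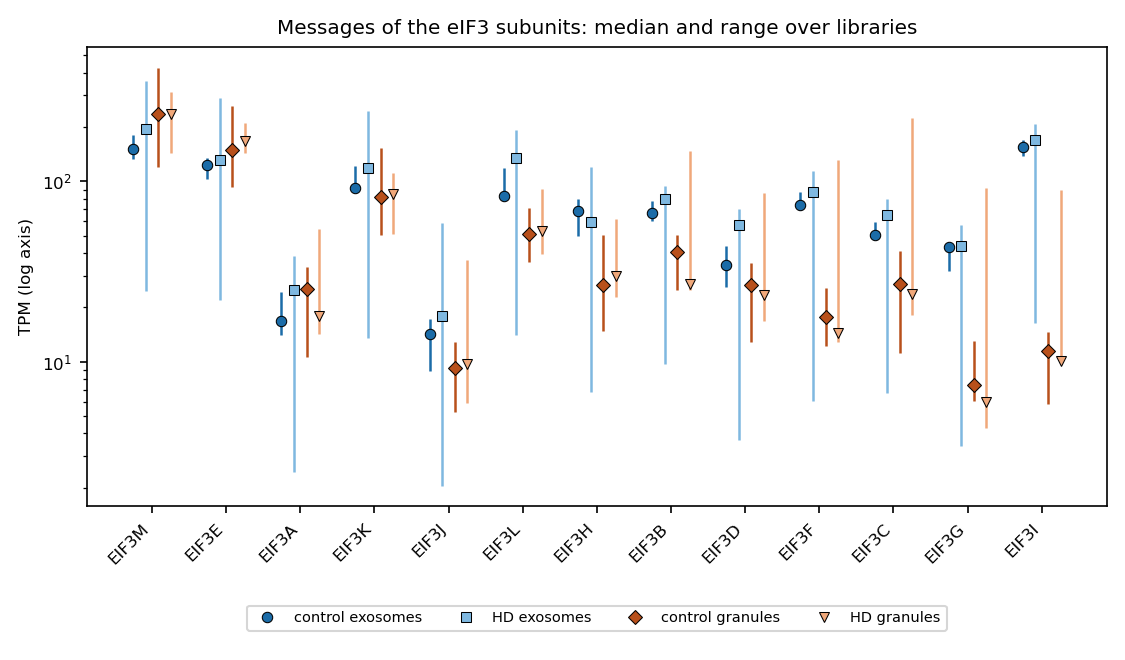
TPM of the 13 eIF3 subunits on a log axis in the 4 groups, ordered by their fold change in control cells, with the median (marker) and the range over libraries (line), HD exosome 4 left out. Control exosomes and control granules were apart for EIF3I, with mean TPM of 152 and 11.4, and control granules were the more spread out over subunits. In HD exosome 2, with a small share of TPM on named genes, the eIF3 median was 6.80 TPM.

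The elongation factors were higher in exosomes for 5 of 6 mRNAs, with none higher in granules and a list median of -1.87. EEF2, which moves the ribosome by 1 codon at a time, held 10118, 6416, 5788, 7152 and 5552 CPM in control exosomes 1 to 5 and 1819.5, 1259.8, 977, 775 and 882 CPM in control granules 1 to 5. It was 6.42-fold higher in exosomes without overlap, at -2.68 (SE 0.28, adjusted p = 6.59e-06). EEF1G, the structural subunit of the exchange factor that reloads eEF1A, held 3017, 2736, 2371, 2563 and 2403 CPM in control exosomes 1 to 5 and 492, 565, 423, 458 and 432 CPM in control granules 1 to 5. Its difference was 5.79-fold toward exosomes, at -2.53 (SE 0.14, adjusted p = 9.06e-08). EEF1A1, which carries aminoacyl-tRNAs to the ribosome and was the most abundant member per length in control exosomes (978 ± 122 TPM), held 4805, 4099.6, 4414, 4153 and 5412 CPM in control exosomes 1 to 5 and 1004, 1251, 1276, 1729 and 1461 CPM in control granules 1 to 5. That was 3.57-fold more in exosomes, at -1.84 (SE 0.17, adjusted p = 2.91e-06). EEF1A1 has many processed pseudogenes, so that its estimated reads carry an uncertainty the replicates do not show. EEF1D, a nucleotide exchange subunit, held 301, 218, 231, 247 and 226 CPM in control exosomes 1 to 5 and 85.9, 101, 63.1, 64.7 and 44.3 CPM in control granules 1 to 5, with no overlap and a value of -1.83 (SE 0.21, adjusted p = 1.27e-05). EIF5A, which helps ribosomes through stretches such as polyproline, had -1.91. EEF1B2, the other exchange subunit, differed from them all in position: its value was 0.06 (SE 0.25, adjusted p = 0.855), with 267 ± 58.3 TPM in exosomes and 256 ± 130.5 TPM in granules.

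In the cap-binding and helicase group 5 of 9 mRNAs were higher in exosomes, 3 were higher in granules and 1, EIF4G1, was not called. All 3 that were higher in granules had a family member that was not. EIF4A2, a helicase, held 372, 382, 312, 349.6 and 337 CPM in control exosomes 1 to 5 and 619.5, 830.5, 779, 911 and 857 CPM in control granules 1 to 5. Every granule library was above every exosome library, at 1.12 (SE 0.12, adjusted p = 9.88e-06), but on protein-coding transcripts only the value was 0.09 (adjusted p = 0.743) and no call remained. Its near copy EIF4A1 was higher in exosomes at -0.88 (SE 0.12, adjusted p = 4.71e-05). The ratio of EIF4A2 to EIF4A1 in TPM was 0.273 to 0.355 in control exosomes and 0.782 to 1.11 in control granules. EIF4E, the cap-binding protein, held 105, 149, 127, 141 and 136 CPM in control exosomes 1 to 5 and 159, 237, 230.1, 285 and 389 CPM in control granules 1 to 5. Its groups did not overlap, and the value was 0.91 (SE 0.20, adjusted p = 0.00157). EIF4E2, a cap-binding relative that represses translation, was higher in exosomes at -1.42. EIF4G3, a scaffold, held 90.9, 125, 110.2, 107 and 133 CPM in control exosomes 1 to 5 and 272, 200.3, 252, 203 and 238 CPM in control granules 1 to 5, a difference of 0.98 (SE 0.13, adjusted p = 3.57e-05) without overlap. The main scaffold EIF4G1 had -0.27 and was not called. Control granule 1 held 745 CPM of it, against 264 to 424 CPM in the other control granules, and without that library EIF4G1 was higher in exosomes at -0.61 (adjusted p = 0.00327), whereas the GC and length offset gave 0.48 with all libraries. EIF4G2, a relative that does not bind eIF4E, was higher in exosomes at -1.13. The helicase helpers EIF4B and EIF4H had -0.94 and -1.41, both called.

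EIF4EBP2, which binds eIF4E and keeps it from eIF4G, held 336, 314, 299, 324 and 308 CPM in control exosomes 1 to 5 and 85.4, 79.5, 79.1, 72.1 and 86.5 CPM in control granules 1 to 5. The libraries of each group lay close together and far from the other group, at -2.04 (SE 0.09, adjusted p = 2.67e-08). EIF4EBP1, with the same role, was not called, at -0.17 (SE 0.25, adjusted p = 0.571).

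**Figure D3:**
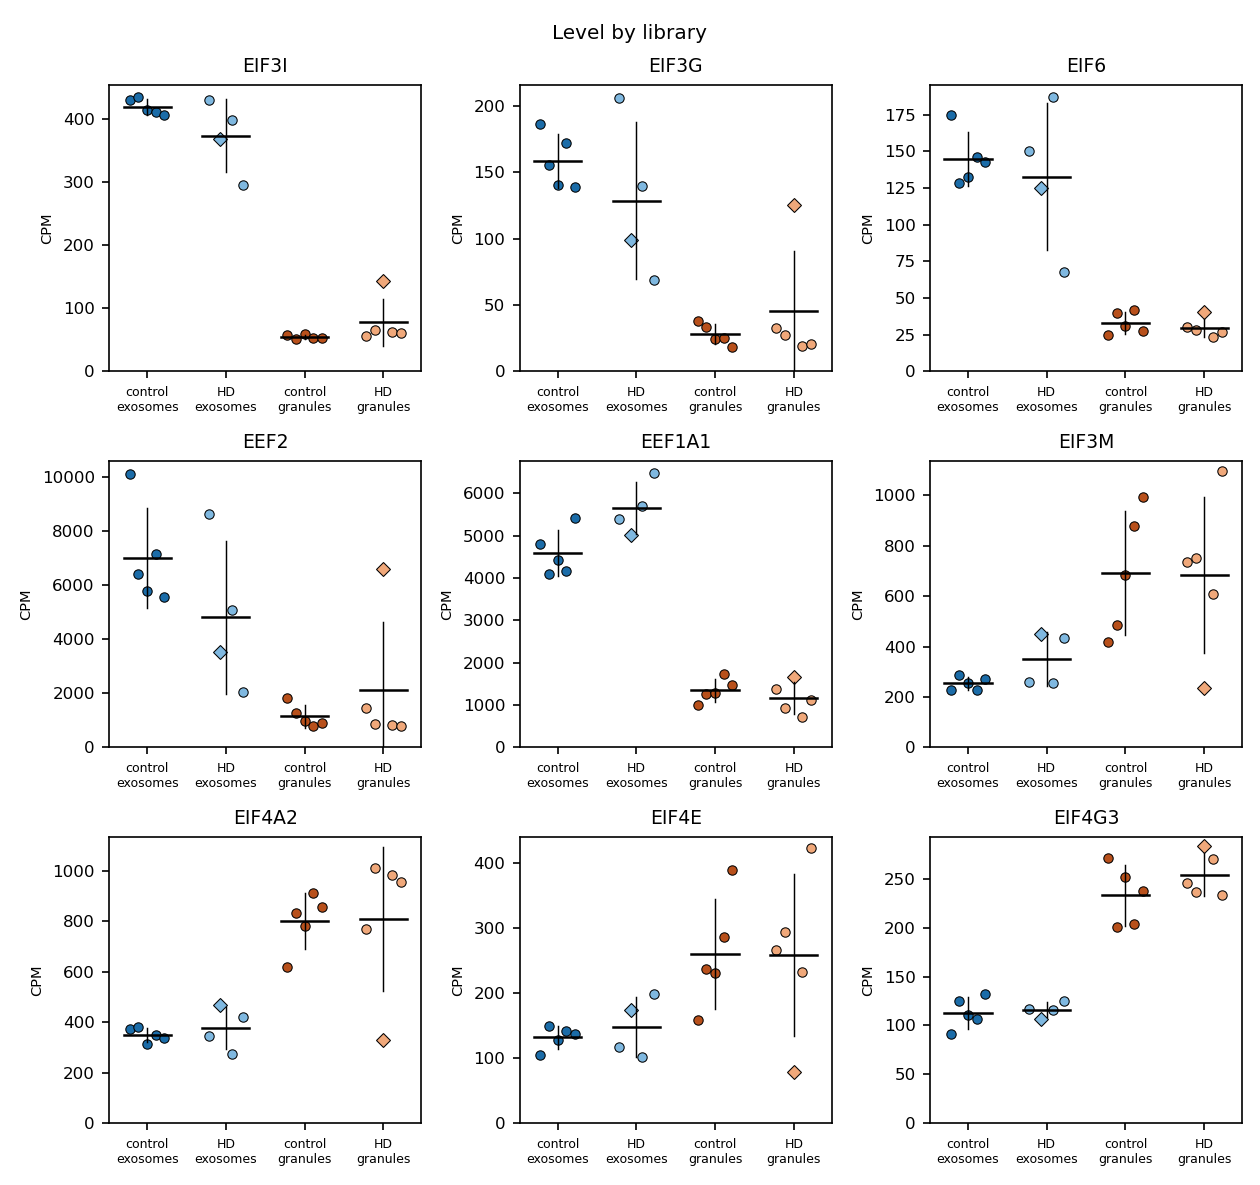
CPM of 9 factor mRNAs in each library of the 4 groups (points), with diamonds for HD exosome 2 and HD granule 3, the mean as a thick line and 1 SD as a thin line. HD exosome 4 is left out, and HD granule 3 sat above the other HD granules for EIF3I (144 CPM), EIF3G (125 CPM) and EEF2 (6609 CPM).

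Among eIF2 subunits EIF2S2, the beta subunit, was higher in granules and EIF2S1, the subunit that is phosphorylated under stress, and EIF2S3, which binds GTP, were higher in exosomes at -0.58 and -1.17. EIF2S2 held 58.1, 123, 88.95, 72.1 and 125 CPM in control exosomes 1 to 5 and 111, 138, 176, 238 and 296 CPM in control granules 1 to 5. Its groups overlapped, and the value was 0.97 (SE 0.28, adjusted p = 0.00876). For eIF2B, the exchange factor of eIF2, 4 of 5 subunits were higher in exosomes and none in granules, with a median of -1.22. EIF2B2, a regulatory subunit, held 50.004, 67.1, 55.8, 51.3 and 55.4 CPM in control exosomes 1 to 5 and 16.5, 14.96, 16.8, 16.4 and 17.7 CPM in control granules 1 to 5, at -1.83 (SE 0.12, adjusted p = 2.04e-07) and without overlap. EIF2B1 (-1.40), EIF2B4 (-1.11) and the catalytic subunit EIF2B5 (-1.22) were called in the same direction, and EIF2B3 (-0.14) was not.

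EIF6, which keeps the large ribosomal subunit from joining too early, held 175, 128, 132, 146 and 143 CPM in control exosomes 1 to 5 and 24.5, 39.95, 30.6, 41.6 and 27.5 CPM in control granules 1 to 5. It was 4.62-fold higher in exosomes without overlap, at -2.21 (SE 0.17, adjusted p = 7.25e-07). Of the other factors for scanning and subunit joining, EIF5B was higher in exosomes at -0.89. EIF1 (-0.19), EIF1AX (0.18) and EIF5 (0.09) were not called. Counted on protein-coding transcripts only, all 3 were called, EIF1 toward exosomes at -0.80 (adjusted p = 0.000109) and EIF1AX and EIF5 toward granules at 0.46 (adjusted p = 0.00906) and 0.41 (adjusted p = 0.0392). With the GC and length offset the values were -0.51 for EIF1, -0.66 for EIF1AX and -0.27 for EIF5, so that the direction of EIF1AX and EIF5 depended on the counting and scaling.

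The 9 members taken as known TOP mRNAs had 7 higher in exosomes, 1 higher in granules (EIF3E, which turned to -0.034 with the GC and length offset) and 1 not called (EEF1B2), with a median of -1.55. Calls toward exosomes and granules made up 32.5% and 30.0% of all genes tested. The list differs from the 10 members with a pyrimidine run at a start: EIF3M and EIF4A2 have that run but are not on it. Members with such a run, as shown by the windows of EEF2 and EIF3M above, were found in both directions. Base composition moved with the fold change: Spearman's rho between median transcript GC and log2 fold change was -0.51 over the 43 members and -0.51 over 13106 genes, which are not independent replicates. The coding starts of an annotated transcript of EIF3M (median GC 38.2%) and of EIF3G (60.3%) are shown for this reason, with the start codon in capitals. EIF3G did not have the highest GC: EEF1D held 62.8%, at -1.83, and EIF4EBP1 held 65.5%, at -0.17 and not called.
EIF3M-203: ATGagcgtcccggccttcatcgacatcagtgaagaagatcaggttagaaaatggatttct
EIF3G-201: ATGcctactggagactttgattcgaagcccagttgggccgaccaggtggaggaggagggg
EIF3M lies at chr11:32583831-32606264 and EIF3G at chr19:10115014-10119899 (GRCh38.p14). The coding sequence of EIF3M-203 held 39.0% GC over 729 bases and that of EIF3G-201 held 60.0% over 963 bases (GENCODE release 29). These percentages cover the whole coding sequence of the named transcript, not the printed bases alone. Both genes have other coding transcripts, which can differ in start and length. Whether EIF3M-203 stands for the main coding form of EIF3M was not tested. With an offset for GC content and length, 8 members were higher in granules and 32 higher in exosomes, against 7 and 27 without it. Calls over all genes with the offset were not set beside these, so the counts do not show a change particular to the members.

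Transcript choice was measured apart from the level, as a ratio within each gene. For each gene with both kinds of transcript, reads on transcripts not annotated as protein coding (retained introns, decay targets and processed transcripts) were set against reads on its protein-coding transcripts. In control cells this non-coding share was higher in granules for 24 of 40 tested members, lower for 4 and not called for 12 (limma, adjusted p under 0.05 over 9900 genes). Among all genes tested 34.9% were higher and 4.92% lower. The median log2 change of the ratio was 1.94 for the members and 1.11 for all genes.

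EIF3I had the smallest adjusted p among the members, though not the largest change. Its non-coding share was 4.62, 5.24, 3.50, 4.12 and 4.94% in control exosomes 1 to 5 and 38.2, 50.2, 41.5, 41.8 and 41.5% in control granules 1 to 5, a log2 change of the ratio of 3.99 (SE 0.27, adjusted p = 1.17e-05). All granule libraries were thus far above all exosome libraries for an mRNA whose level was far below. The share of EEF1A1 was 0.297, 0.993, 0.442, 0.541 and 0.466% in control exosomes and 27.4, 20.4, 27.6, 21.5 and 18.6% in control granules, at 5.86 (SE 0.44, adjusted p = 1.49e-05). EIF3G had 6.08, 4.67, 5.88, 5.27 and 3.63% and 35.1, 50.1, 38.9, 50.7 and 38.5%, at 3.79 (SE 0.31, adjusted p = 2.53e-05). These groups did not overlap. EIF4A1 had 13.6, 12.7, 15.4, 11.7 and 11.99% and 47.5, 48.04, 54.2, 51.4 and 47.99%, at 2.73 (SE 0.23, adjusted p = 3.08e-05), and EIF3B had 2.58, 0.888, 1.82, 1.62 and 0.917% and 18.3, 20.8, 21.4, 25.03 and 21.1%, at 4.19 (SE 0.41, adjusted p = 6.55e-05). Every granule library exceeded every exosome library for both. EEF2 kept nearly all of its reads on coding transcripts, with a non-coding share of 0.0473% to 0.185% in control exosomes and 1.60% to 2.67% in control granules.

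The 4 members with a lower share in granules were EEF1G, EIF3E, EIF3M and EIF3J. EIF3M went from 42.8% to 52.9% in control exosomes to 30.9% to 34.2% in control granules. EIF3E went from 14.4% to 38.0% to 5.23% to 8.48%. Its value turned to 0.34 when retained-intron transcripts alone were counted, without a call (limma, adjusted p = 0.47). The same change of count turned EEF1G to 6.56 (adjusted p = 0.000543) and EIF3J to 3.26 (adjusted p = 0.0136), both called. EIF3M kept its direction, at -0.67, but lost its call (adjusted p = 0.0969). The retained-intron share of EEF1G was 0% in control exosomes and 0% to 0.865% in control granules, so the size of its change depends on the 0.5 added to each count. Of 36 members with an annotated retained-intron transcript and enough reads on the whole gene, 27 were higher in granules and 1 lower (EIF3L), against 55.7% and 2.88% of genes. No minimum was set on the retained-intron reads themselves. Members with a share of 0% in all control exosomes, such as EIF4B and EEF1G, were therefore tested too.

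**Figure D4:**
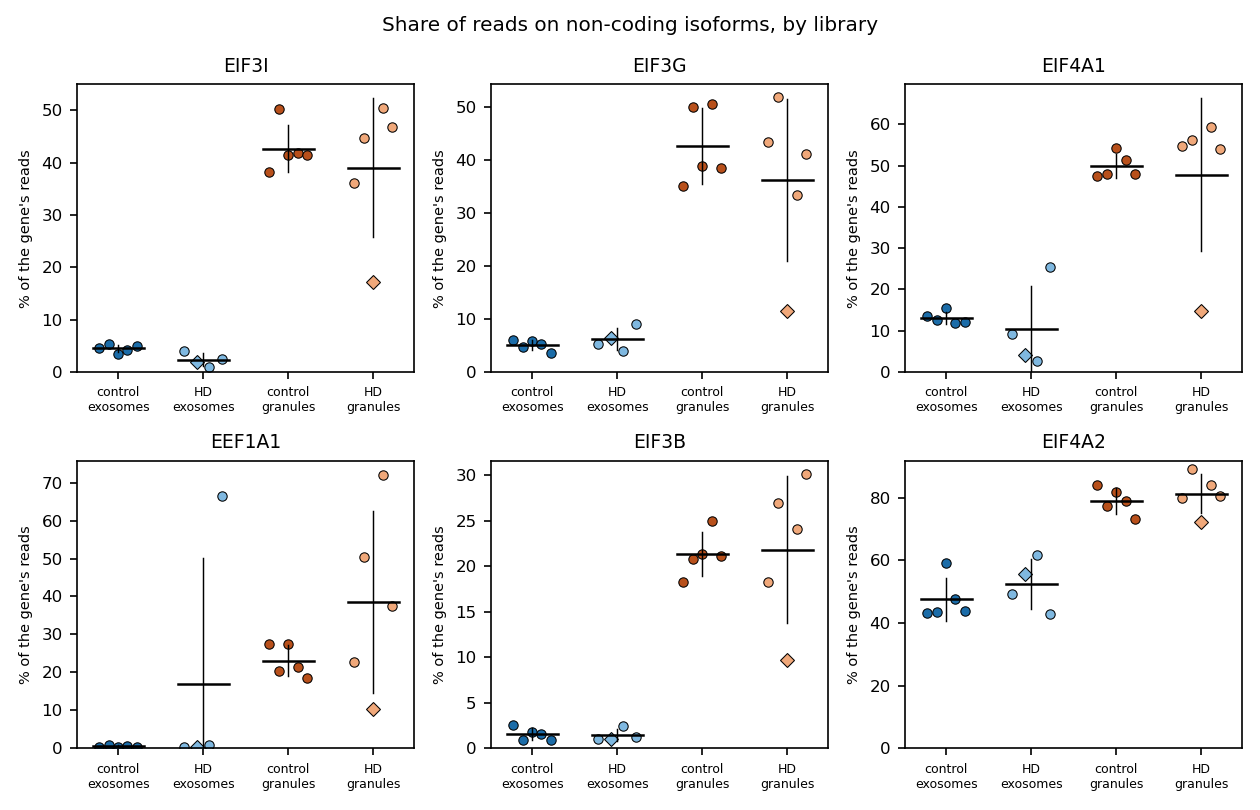
Percent of a gene's reads on transcripts not annotated as protein coding, for 6 factor genes in each library (points), with the mean (thick line) and 1 SD (thin line). Diamonds are HD exosome 2 and HD granule 3, HD exosome 4 is left out, and control granules sat above control exosomes for all 6.

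Single retained-intron transcripts made up a part of these shares. Those named here were each gene's non-coding transcript with the largest gain in mean share from control exosomes to control granules. Their rise was therefore set by that choice and is no separate result. EIF4A2-219 took 5.28% to 9.64% of EIF4A2 reads in control exosomes and 31.2% to 44.3% in control granules. EIF4G2-225 took a mean of 0.96% of EIF4G2 reads in control exosomes and 28.1% in control granules, and EIF3G-212 took 0.70% and 13.5% of EIF3G reads. Mean shares of EIF1-202 were 3.56% and 41.5%, and those of EIF3I-206 were 0.67% and 19.7%. The whole non-coding share in control granules had a mean of 42.9% for EIF4G2 and 42.6% for EIF3G. That of EIF1 was 66.9% in control exosomes and 81.9% in control granules, so it rose by less than EIF1-202 did. An exon-intron border kept in EIF4A2-219, EIF4G2-225 and EIF3G-212 is shown. It has 20 exon bases followed by 30 intron bases, 5' to 3' on the gene's strand, and the GT at the start of the intron in capitals.
EIF4A2-219 (chr3:186784677-186784726, plus strand): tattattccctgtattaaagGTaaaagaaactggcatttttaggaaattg
EIF4G2-225 (chr11:10807225-10807274, minus strand): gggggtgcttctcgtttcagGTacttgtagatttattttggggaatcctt
EIF3G-212 (chr19:10119624-10119673, minus strand): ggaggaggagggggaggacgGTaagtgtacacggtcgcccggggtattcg
These introns were 265, 369 and 482 bases long (GRCh38). EIF4A2-219 keeps 7 introns that its coding partner removes, and 5 small nucleolar RNA genes lie within it, whereas EIF4G2-225 and EIF3G-212 keep 6 and 2 introns and hold none. In all, 9 members host 19 small nucleolar or Cajal body RNAs. Counted on protein-coding transcripts only, EIF4A2 was no longer called, as given above, while EIF3I (-3.46), EIF3G (-3.04) and EIF3M (2.07) moved further from 0.

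In HD-induced cells the comparison of granules with exosomes was less precise, with a median 95% interval of ± 0.82 on the log2 scale against ± 0.31 in control cells. EIF4G3 was higher in granules and 8 members were higher in exosomes, of 43, beside 11.9% and 5.77% of 14431 genes (17.7% in all, edgeR, adjusted p). All 5 granule libraries and all exosome libraries with a level were apart for 18 of the 43 members, beside 17.4% of genes. The median was -0.71 for the members and 0.17 for all genes. Without HD exosomes 2 and 4 and HD granule 3, 5 members were higher in granules and 26 in exosomes, against 18.6% and 16.4% of 16455 genes. Scaling also moved the balance: size factors from median ratios (RLE) gave 3 and 7 members (2459 and 577 of all genes), and the offset for GC content and length gave 1 and 31 (1208 and 4572).

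EIF3I held 431, 367, 399 and 295 CPM in HD exosomes 1, 2, 3 and 5 and 55.3, 65.4, 144, 63.03 and 61.4 CPM in HD granules 1 to 5. No granule library reached an exosome library, but HD granule 3 stood between the rest of both groups, and the log2 fold change was -2.16 (SE 0.34, adjusted p = 0.00289), or -2.63 without the 3 libraries. EIF6 held 151, 125, 187 and 67.8 CPM in HD exosomes 1, 2, 3 and 5 and 30.2, 27.8, 40.1, 23.7 and 26.8 CPM in HD granules 1 to 5, apart in all libraries, at -2.09 (SE 0.30, adjusted p = 0.0023). EEF1A1 held 5385, 5022, 5699 and 6482 CPM in HD exosomes 1, 2, 3 and 5 and 1373, 936, 1666, 705 and 1110.2 CPM in HD granules 1 to 5, at -1.998 (SE 0.59, adjusted p = 0.0315). Its groups did not overlap, yet the call was lost when any 1 of HD exosomes 1, 2, 3 and 5 or of HD granules 1, 2, 4 and 5 was left out (adjusted p 0.058 to 0.109). A replicate block ended the EEF1A1 call too (edgeR, adjusted p = 0.144). EIF4EBP2 held 290.1, 293, 371 and 379.9 CPM in HD exosomes 1, 2, 3 and 5 and 81.7, 74.1, 114, 70.5 and 75.5 CPM in HD granules 1 to 5, at -1.85 (SE 0.34, adjusted p = 0.00587), again with both groups apart.

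EIF2B2 held 53.99, 50.9, 79.1 and 59.0003 CPM in HD exosomes 1, 2, 3 and 5 and 15.96, 19.04, 22.99, 20.8 and 17.8 CPM in HD granules 1 to 5, at -1.57 (SE 0.27, adjusted p = 0.00452). EEF1D held 294, 199.7, 185 and 145 CPM in HD exosomes 1, 2, 3 and 5 and 70.3, 53.6, 144, 42.4 and 40.2 CPM in HD granules 1 to 5, at -1.43 (SE 0.41, adjusted p = 0.0302). The highest EEF1D granule value, that of HD granule 3, came within 1 CPM of the lowest exosome value. That call was lost with the other size factors (adjusted p = 0.0506) and without any 1 of HD exosomes 1, 2 and 3 or HD granules 1, 2, 4 and 5 (adjusted p 0.0642 to 0.0955). EIF4E2 (-1.20) and EIF2B1 (-1.10) were the other mRNAs called toward exosomes. EIF4G3 held 117, 107, 115 and 125 CPM in HD exosomes 1, 2, 3 and 5 and 246, 237, 284, 270.4 and 233 CPM in HD granules 1 to 5, with every granule library higher, at 1.23 (SE 0.28, adjusted p = 0.0116).

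EEF2, EIF3G and EEF1G, with large differences in control cells, were not called in HD-induced cells, and HD granule 3 lay among or near the exosomes for each. EEF2 held 8636, 3530.4, 5089 and 2032 CPM in HD exosomes 1, 2, 3 and 5 and 1465, 862, 6609, 842 and 780.4 CPM in HD granules 1 to 5, at -0.93 (SE 0.76, adjusted p = 0.411). One granule library was thus above all but 1 exosome library, and without the 3 libraries the value was -2.43 (SE 0.46, adjusted p = 0.00412). EIF3G held 206, 99.2, 139 and 69.1 CPM in HD exosomes 1, 2, 3 and 5 and 32.9, 27.6, 125, 19.4 and 20.3 CPM in HD granules 1 to 5, at -1.41 (SE 0.54, adjusted p = 0.0817), and EEF1G held 3034, 2192, 2121 and 1714 CPM in HD exosomes 1, 2, 3 and 5 and 464, 416, 1285, 410.4 and 415 CPM in HD granules 1 to 5, at -1.64 (SE 0.58, adjusted p = 0.062). Without the 3 libraries they had -2.49 and -2.45. With a replicate block and all libraries, EIF3G was called toward exosomes, as given in the last section. EIF3M, EIF4A2, EIF3E and EIF4E, which were higher in control granules, had their lowest HD granule value in the same library, unlike EIF4G3, which had its highest there. EIF3M held 259, 448, 253 and 435 CPM in HD exosomes 1, 2, 3 and 5 and 738, 751, 234, 608 and 1095 CPM in HD granules 1 to 5, at 1.11 (SE 0.44, adjusted p = 0.0952), and 1.32 (SE 0.30, adjusted p = 0.00877) without the 3 libraries. EIF4A2 held 344, 467, 276 and 421 CPM in HD exosomes 1, 2, 3 and 5 and 768, 1011, 329.8, 984 and 954 CPM in HD granules 1 to 5, at 1.25 (SE 0.42, adjusted p = 0.0525), and 1.40 (SE 0.24, adjusted p = 0.00264) without them. EIF3E held 377, 657, 322 and 647 CPM in HD exosomes 1, 2, 3 and 5 and 814, 1128, 244, 1261 and 1276 CPM in HD granules 1 to 5, at 1.09 (SE 0.50, adjusted p = 0.143), and 1.30 (SE 0.31, adjusted p = 0.0104) without them. EIF4E, at 1.11, joined these and EIF4G3 as the 5 called toward granules in that set of libraries, and held 117, 174, 101 and 198 CPM in HD exosomes 1, 2, 3 and 5 and 266, 293, 78.6, 232 and 423 CPM in HD granules 1 to 5. EIF2S2 held 114, 193, 83.6 and 179.8 CPM in HD exosomes 1, 2, 3 and 5 and 167, 182, 155, 235 and 287 CPM in HD granules 1 to 5, with overlapping groups and a value of 0.63 (SE 0.35, adjusted p = 0.218).

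The eIF3 spread in TPM was 10.8 to 12.1 in HD exosomes 1, 2, 3 and 5. In HD granules it ran from 6.45 to 60.9, and the EIF3M over EIF3I ratio ran from 2.66 to 30.8, against 1.04 to 1.97 in those exosomes. The non-coding share was higher in HD granules for 14 of 40 members and lower for 2 (limma, adjusted p), beside 14.3% and 2.86% of 8143 genes. Only 8 or 9 were higher when HD granule 1, 2, 4 or 5 was left out. With a replicate block no member kept its call (limma, adjusted p = 0.066 for EIF3A and EIF3I). Without the block, the smallest adjusted p belonged to EIF3A, at 5.68 (SE 0.66, adjusted p = 0.00292), EIF3I, at 4.82 (SE 0.72, adjusted p = 0.00444), and EIF3B, at 4.24 (SE 0.67, adjusted p = 0.00538). EIF5A, at 4.91 (SE 0.78, adjusted p = 0.00557), and EIF2B4, at 3.60 (SE 0.75, adjusted p = 0.0125), followed. EIF3A had a share of 0% in HD exosomes 1, 2, 3 and 5 and of 1.27% to 2.64% in HD granules. For EIF5A the shares were 0% to 0.363% and 2.55% to 3.58%. So near 0, the size of both changes depends on the added 0.5 and on depth. For EIF3I the shares were 3.99, 1.90, 0.886 and 2.52% in HD exosomes 1, 2, 3 and 5 and 36.05, 44.8, 17.2, 50.5 and 46.8% in HD granules 1 to 5, so that HD granule 3 again lay between. EEF1A1, not called, had 0.462, 0.313, 0.941 and 66.5% and 22.9, 50.3, 10.3, 72.1 and 37.5%. In HD exosome 5 the retained-intron transcript EEF1A1-207 alone took 66.3% of its reads, against 0% to 0.465% in control exosomes. Of the 2 lower calls, that of EIF3E was not kept when retained-intron transcripts alone were counted (0.74, limma, adjusted p = 0.409). EIF4EBP1 had 0 reads on non-coding transcripts in every library, so that its value reflects only depth and the added constant and is no measurement. Counted on retained-intron transcripts alone, 22 of 36 members were higher in HD granules and 0 lower, against 35.5% and 3.67% of genes.

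The HD-induced state was then compared with the control state within each compartment. In exosomes none of the 43 mRNAs was called, as was the case for 0% of 12936 genes (edgeR, adjusted p). Unadjusted, 2 members had a p under 0.05, EIF3J (0.86) and EIF2S2 (0.61), both toward HD, with a smallest adjusted p of 0.598. Base composition moved with these exosome values. Spearman's rho between median transcript GC and log2 fold change was -0.77 over the members and -0.65 over 12196 genes. For granules it was 0.01 and -0.11. The part of composition in the HD values was not tested. In granules 0 of 43 members and 0% of 16750 genes were called, with 1 unadjusted p under 0.05 (EIF1, 0.33) and a smallest adjusted p of 0.9996. DESeq2 and voom with quality weights also called 0 members in both compartments. No member's groups were apart in either comparison, beside 1.69% and 0.322% of genes. The 95% intervals were ± 0.38 to ± 1.06 in exosomes and ± 0.30 to ± 1.40 in granules, so that effects within these widths were not detectable at this depth and spread. These widths are for single genes and are not adjusted, whereas calls needed an adjusted p under 0.05. Effects beyond them could thus also go uncalled, as did those of EIF3J and EIF2S2 in exosomes.

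For EIF3I the HD effect was -0.15 (95% interval -0.58 to 0.28) in exosomes and 0.51 (95% interval -0.07 to 1.10) in granules. The difference of these effects was 0.74 in edgeR's interaction term (adjusted p = 0.8755). EIF3I was the 1 member with an unadjusted p under 0.05 in that test, in which 0 members and 0.0186% of 16154 genes were called. EIF6 had -0.08 (95% interval -0.62 to 0.47) and -0.14 (95% interval -0.61 to 0.33). EEF2 had -0.68 (95% interval -1.74 to 0.38) and 0.90 (95% interval -0.49 to 2.30), the widest pair among the members named here. The granule values of EIF3I and EEF2 include HD granule 3, which held 144 and 6609 CPM of them. It stood apart above the other HD granules for both, as listed by library above. The part of that library in these granule values and in the interaction term is not given. Without the 3 libraries no member was called in exosomes (smallest adjusted p = 0.857) or granules (smallest adjusted p = 0.493). The non-coding share gave no member call either, beside 0% of genes in both compartments (limma, smallest adjusted p 0.396 and 0.9993).

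**Figure D5:**
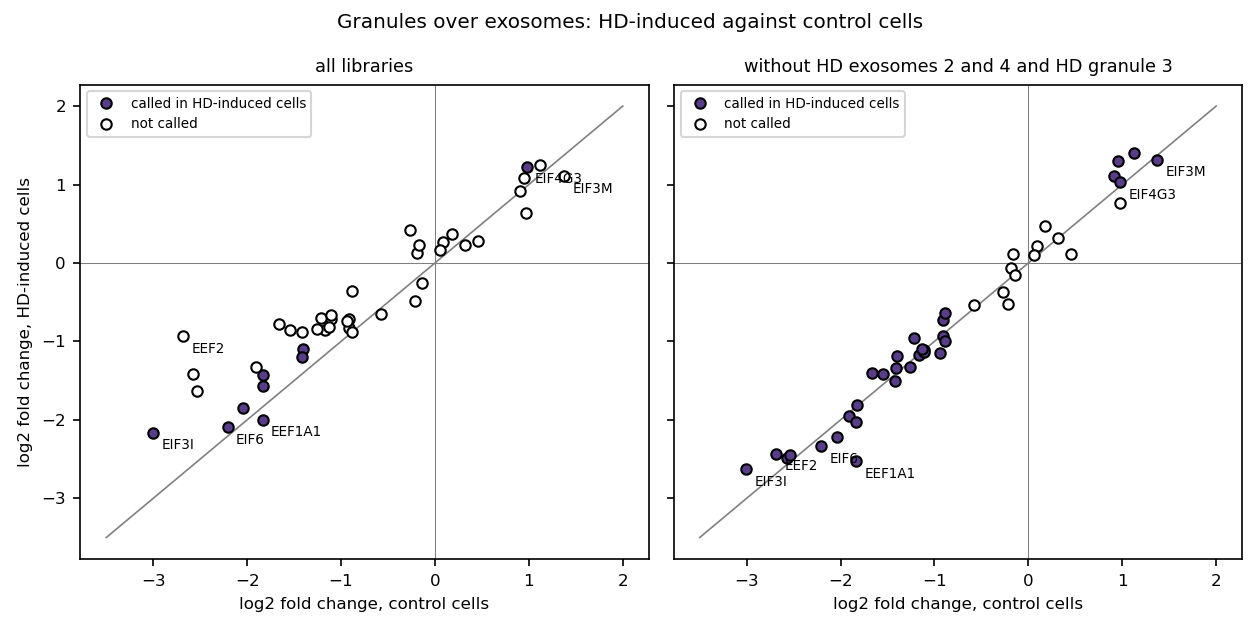
Log2 fold change of granules over exosomes in HD-induced cells (vertical) against control cells (horizontal) for the 43 mRNAs, with all libraries (left) and without HD exosomes 2 and 4 and HD granule 3 (right). Filled points were called in HD-induced cells, 9 on the left and 31 on the right, and the grey line marks equal values.

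Other genes of the translation machinery are given by list for control cells, with the number called toward granules first and toward exosomes after it. Among all genes these calls made up 30.0% and 32.5% in control cells, and 11.9% and 5.77% in HD-induced cells. Of 8 termination, recycling and rescue factors 2 and 4 were called, with MCTS1, a recycling factor, at 1.44 and its relative EIF2D at -1.19. Of 17 tested paralogs and helpers 3 and 8 were called, among them EEF1E1 at 1.92, and the helicase EIF4A3 of the exon junction complex at -1.07. Of 16 kinases and signalling genes 2 and 7 were called. EIF2AK3, the kinase PERK that phosphorylates eIF2 when the endoplasmic reticulum is stressed, was higher in granules at 1.90, and EIF2AK1, the haem-regulated kinase, was higher in exosomes at -0.97. Of 22 cytosolic aminoacyl-tRNA synthetases and their scaffold genes 4 and 13 were called. The scaffold genes AIMP1 and AIMP2 went apart, at 0.72 and -1.85, with the synthetase KARS1 at -1.71 and EPRS1 at 1.06. Of 10 mitochondrial translation factors 3 and 4 were called, with the elongation factor TUFM at -1.89. In HD-induced cells these lists had 1 and 1, 1 and 1, 1 and 0, 1 and 2, and 0 and 1 called, with EIF2AK3 at 2.13, MCTS1 at 1.68 and EEF1E1 at 2.44.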

How the data were processed

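Total RNA libraries of 100-base read pairs (stranded kit, NovaSeq, per the labels' protocols) came as 1 table of transcripts each. Per the submitters' processing notes, the authors used Trimmomatic, cutadapt, FastQC and Salmon with build GRCh38.p14; no versions are stated in the sources used here. The deposited values are expected counts, Salmon's estimated reads per transcript, and TPM, which the authors' tool scales by transcript length within a library. Reads without a gene name (24.9% to 86.6%) stayed out of library sizes. Expected counts were summed per gene over 251955 named transcripts and rounded. Levels were tested with edgeR 4.0.16 (R 4.3.3; filterByExpr, TMM, robust quasi-likelihood, 1 fit per comparison, Benjamini-Hochberg over all tested genes, calls at adjusted p under 0.05), and the SE is the log2 fold change over the root of F. Isoform shares were tested with limma 3.58.1 on log2 of non-coding over coding reads, 0.5 added to each, in genes with at least 10 reads in every library used. Libraries under 100000 named reads (HD exosome 4) stayed out of levels and shares. GC content and transcript classes came from GENCODE release 29 and the file headers. No libraries of a group agreed within sampling noise (smallest chi-square per degree of freedom 10.0). Scripts were tested on simulated data. All 43 genes could be named; library values were given for EIF3I, EIF6 and up to 6 called members per direction and comparison with the largest fold change, and up to 5 members by isoform p. The 43 genes and all lists were chosen with earlier results of these data known. Alternatives were RLE and upper-quartile factors, DESeq2 1.42.0, voom with weights, no filter, a GC and length offset, coding transcripts only, a replicate block, other isoform settings and libraries left out. The isoform counts on retained introns alone or with at least 10 non-coding reads were added after the data were seen.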

Additional observations from a re-analysis of the deposited data

Results flagged for a closer look

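Among the members given by library, 6 of 60 groups of libraries held a value apart from the rest, and each was the highest value of the HD granules, in HD granule 3. The gap to the next library, as a share of the group's range, was 0.939 for EEF1G (1285 CPM), 0.886 for EIF3I (144 CPM), 0.883 for EEF2 (6609 CPM), 0.873 for EIF3G (125 CPM), 0.744 for EIF4EBP2 (114 CPM) and 0.71 for EEF1D (144 CPM, just past the critical value), against Dixon's critical value of 0.71 for 5 libraries. Chance alone marks about 1 group in 20. Over all 43 members 14 of 172 groups were marked, 11 of them in HD granules, and all 11 by HD granule 3. This library was above every other HD granule for 23 members and below every one for 15.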

How the results depend on the processing

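For granules against exosomes in control cells, 9 of 817 member values under alternatives lost their call, 15 gained one and 11 reversed. In HD-induced cells 17 of 817 lost it, 125 gained one and 4 reversed, with gains for 20 of 43 members under the GC and length offset, 22 without the 3 divergent libraries and 21 with voom weights. HD against control had no call to lose, and 2 values gained one, both in exosomes. In control cells a 2-fold minimum left 2 members higher in granules. In HD-induced cells those higher in granules numbered 3 with RLE factors, 4 with DESeq2, 6 with voom weights, 3 without the count filter, 2 on coding transcripts and 5 without the 3 divergent libraries, and those higher in exosomes 24 with voom weights, 31 with the GC and length offset (28 with the block added) and 26 without the 3 libraries. Calls over all genes are given above for RLE factors, the offset and the set without the 3 libraries. For the other settings they are not given, so those counts do not show a change particular to the members. Upper-quartile factors could not be fitted with HD exosome 4, whose upper quartile is 0.

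With the GC and length offset (and with the replicate block added, in parentheses), control values turned for EIF1AX to -0.66 (-0.66), EIF3A to -0.076 (-0.075), EIF3E to -0.034 (-0.037), EIF5 to -0.27 (-0.27), EIF4EBP1 to 0.46 (0.43) and EIF4G1 to 0.48. In HD-induced cells EIF3A turned to -0.50, EIF5 to -0.53 (-0.59) and EEF1B2 to -0.60. The offset shifted the median of all genes from -0.02 to -0.11 in control cells and from 0.17 to -0.35 in HD-induced cells. EIF3M kept its direction, with 0.33 (adjusted p = 0.0679) under offset and block. The cause was not tested.

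Counting retained introns alone left 1 member with a lower share in control granules and turned EIF2B2 to 0.73, EIF3E to 0.34, EIF3J to 3.26, EIF4G3 to 1.71 and EEF1G to 6.56. In HD-induced cells it gave 22 higher and 0 lower and turned EIF3E to 0.74, EIF4E to 2.44 and EEF1G to 5.46. EIF3E was not called on this count in control or HD-induced cells. With at least 10 non-coding reads, which drops EIF4EBP1, 1 was lower in HD granules. On coding transcripts the mean of the median member was 42.6 TPM in control exosomes and 18.9 TPM in control granules. Calls on coding transcripts were lost in control cells for EIF2S1 (-0.25), EIF3L (-0.21) and EIF4A2 (0.09) and gained for EIF1 (-0.80), EIF1AX (0.46) and EIF5 (0.41). Other calls gained in control cells were EIF1 with voom weights (-0.20), EIF1AX with DESeq2 (0.30) and upper-quartile factors (0.31), and EIF1 (-0.51), EIF2B3 (-0.38), EIF3J (-0.89) and EIF3K (0.71) with the offset.

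Whether replicate numbers pair the libraries was not settled: same-numbered libraries correlated at -0.127 to 0.370. Replicates 1 and 5 correlated best with their own number in every comparison, and replicates 2, 3 and 4 in none. With a replicate block, 1 member was called higher in HD exosomes than in control exosomes (EIF3J, adjusted p = 0.0490), and 0 members had a higher and 0 a lower non-coding share in HD granules (adjusted p = 0.066 for EIF3I). In HD-induced cells the block ended the level call of EEF1A1 (adjusted p = 0.144) and called EIF3G (-1.54, adjusted p = 7.39e-05).

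Leaving out 1 library at a time gave 6 to 8 members higher in granules and 26 to 28 higher in exosomes in control cells. EIF3A lost its call without control exosome 1, 3 or 4 and EIF2S1 without control granule 2 or 3, and EIF3K (0.52) and EIF4G1 (-0.61) gained one without control granule 1. In HD-induced cells it gave 1 to 5 and 6 to 20, with 5 and 20 without HD granule 3, and 2 and 19 without HD exosome 4. Calls over all genes were not set beside these counts. HD against control gave 0 to 1 in exosomes (EIF3J without HD exosome 1, adjusted p = 0.0433) and 0 in granules. Higher non-coding shares ranged from 21 to 25 in control cells and 8 to 18 in HD-induced cells, with 8 or 9 without HD granule 1, 2, 4 or 5, lower ones from 4 to 6 and 1 to 3, and HD against control from 0 to 1 in exosomes (EIF4EBP1, with 0 non-coding reads). Depth limits HD exosomes most: replicate 4 held 713 named reads.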
